A study of Mus musculus with 12 samples.

Results

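Reln, Lrat, Ecm1, Dcn, Colec11, Des, Pdgfrb and Hgf are marker genes of hepatic stellate cells, the pericytes of the liver sinusoid. Their m6A peaks were compared between livers of cadmium-exposed and control mice. Every peak whose list of gene symbols held one of these names was taken, which gave 19 of the 37118 peaks in the table. All 8 genes, of 13060 gene symbols in the table, had at least 1 peak. Lrat and Colec11 had 5 each, Dcn had 3, Hgf had 2, and Reln, Ecm1, Des and Pdgfrb had 1 each.

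All animals were male wild-type C57BL/6 mice, with an age of 6 to 8 weeks given in the growth protocol of the labels. That age is less than 90 days, so it is not taken as the age when livers were collected. Controls received 0 and the exposed mice 20 mg/kg CdCl2 by gavage each day, and livers were taken at day 90. RNA fragments bearing m6A (N6-methyladenosine, a methylated form of adenosine) were pulled down with an antibody and counted over a common set of peaks in 3 control and 3 cadmium samples. The labels give 6 animals per group and do not say how the 3 samples were drawn from them, so the tests measure the spread between these samples. Total counts in peaks ran from 40174736 to 52338612 per sample. Together, 2 peaks in the predicted genes Gm12895 and Gm12896 took from 4.95% to 19.7% of them, and leaving these out of the library sizes changed none of the 19 calls.

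Stellate cells in the resting state hold retinyl esters in lipid droplets. After injury they can turn into myofibroblasts that lay down collagen and other matrix proteins. Growth signals through the PDGF receptor beta drive their division, and they are a source of hepatocyte growth factor for the parenchyma. Whole liver contains few of these cells among many hepatocytes. In whole liver, a change in the number of cells of a type and a change in RNA per cell cannot be told apart, in either direction. A peak count further joins the amount of RNA with its methylated share.

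RefSeq promoter windows (GRCm38.p6, 250 bases before to 50 bases after a start site) were found for 6 of the 8 genes. They are shown for the 2 genes with called peaks and for the 1 window that a peak entered. The first 2 sequences carry in capitals any TATAA on the strand of the gene, and the last carries in capitals the 70 bases that lie inside a peak.

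Lrat, chr3:82903925-82904224, minus strand: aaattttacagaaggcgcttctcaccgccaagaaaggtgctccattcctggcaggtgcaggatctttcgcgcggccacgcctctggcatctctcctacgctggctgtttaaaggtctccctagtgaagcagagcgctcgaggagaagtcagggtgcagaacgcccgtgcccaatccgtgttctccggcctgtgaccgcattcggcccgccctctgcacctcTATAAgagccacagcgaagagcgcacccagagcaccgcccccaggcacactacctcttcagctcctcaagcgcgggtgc

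Colec11, chr12:28623281-28623580, minus strand: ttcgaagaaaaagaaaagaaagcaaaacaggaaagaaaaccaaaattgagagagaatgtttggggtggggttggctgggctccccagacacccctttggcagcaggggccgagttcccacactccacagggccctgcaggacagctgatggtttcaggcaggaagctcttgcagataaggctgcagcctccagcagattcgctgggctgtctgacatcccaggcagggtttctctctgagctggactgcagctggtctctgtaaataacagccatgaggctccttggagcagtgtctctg

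Hgf, chr5:16553651-16553950, plus strand: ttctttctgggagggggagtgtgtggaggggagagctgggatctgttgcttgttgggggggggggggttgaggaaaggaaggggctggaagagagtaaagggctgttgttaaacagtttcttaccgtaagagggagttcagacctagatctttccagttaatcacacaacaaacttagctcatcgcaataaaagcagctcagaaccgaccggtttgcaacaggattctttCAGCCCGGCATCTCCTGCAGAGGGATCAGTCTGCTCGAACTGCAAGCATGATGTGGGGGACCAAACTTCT

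The Lrat window held TATAA once, beginning 29 bases before the start site, and its most abundant peak lay 18 bases from the window's downstream edge. The Colec11 window held TATAA on neither strand. Of 32851 windows of the same length, 17.5% held TATAA on the strand of the gene and 24.9% on either strand. The last 70 bases of the Hgf window held 3 matches to the m6A consensus on the strand of the gene. That consensus covers 18 forms of 5 bases, in which A, G or T comes first, then A or G, then AC, then A, C or T. At least 1 match occurred in the last 70 bases of 65.2% of all windows, and 3 or more in 11.2%. These matches describe letters and not methylated sites.

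Every one of the 19 peaks had a higher fitted level in cadmium than in control samples. Log2 changes ran from 0.14 to 0.91 with a median of 0.55, against a median of -0.00 over all 37088 tested peaks, of which 49.6% were above 0. By edgeR's quasi-likelihood test, with p-values adjusted over all tested peaks, 3 of the 19 rose and 0 fell at an adjusted p below 0.05. Those 3 were 2 peaks of Lrat and 1 of Colec11. Over all peaks 3.55% were called higher and 2.72% lower. At an unadjusted p below 0.05, 13 of the 19 were higher, against 11.9% of all peaks. All 3 cadmium samples lay above all 3 controls at 13 of the 19 peaks, against 14.4% of all peaks. Peaks of 1 gene share its RNA, so the 19 are not independent. The markers were also chosen with earlier results of these data known. Shares of all peaks or genes, here and below, are therefore given for description and are no test of the set.

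The calls sat close to the threshold. No member peak was called without cadmium replicate 3 or without control replicate 3. Labels name replicates 1, 2 and 3 as batches, and with the replicate block 8 of the 19 were called higher, against 4.64% of all peaks. DESeq2 called 9 higher, against 5.55% of all peaks. The median member change within batch 1, cadmium against control, was 0.49, and it was 0.49 in batch 2 and 0.70 in batch 3. Of the 57 within-batch differences, 54 were above 0, and the other 3 (Reln, 1 peak of Lrat and 1 of Hgf) were all in batch 2. These differences use the same counts as the group comparison and are not independent. Their share above 0 over all peaks was not computed. Among controls, replicate 2 had the highest value at 14 of the 19 peaks and replicate 3 the lowest at 14.

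**Figure D1:**
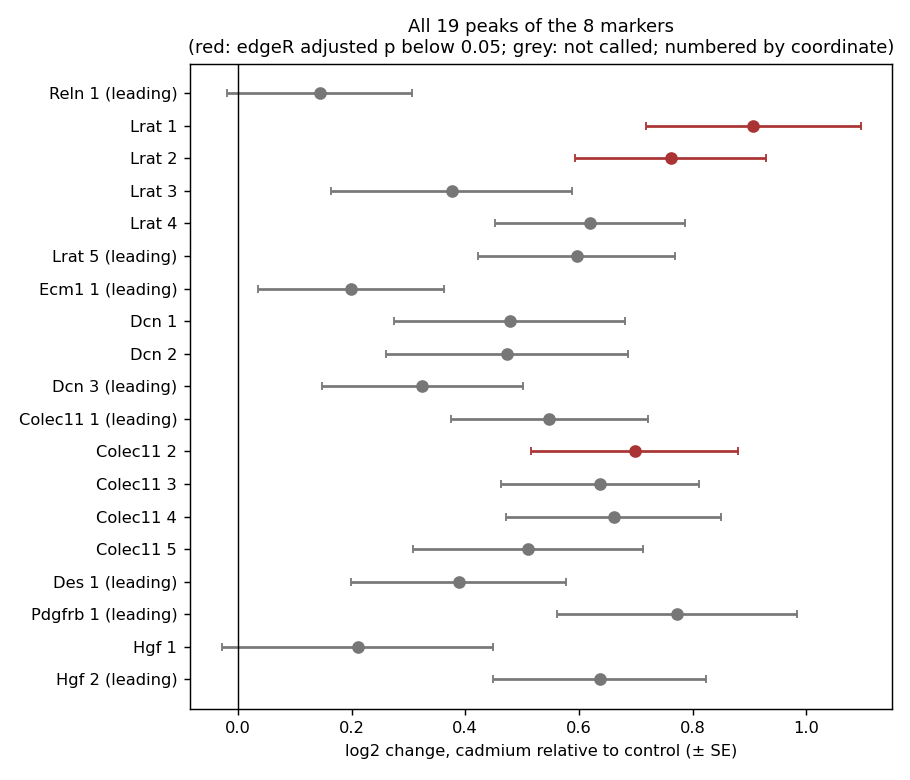
Log2 change in cadmium relative to control samples (horizontal axis, with SE) for the 19 peaks of the 8 markers, numbered by coordinate within a gene. All points lie right of 0, from 0.14 (Reln) to 0.91 (Lrat peak 1), and the 3 red points are the peaks called by edgeR.

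Lrat encodes lecithin retinol acyltransferase, the enzyme that esterifies retinol for storage. Its 5 peaks lie inside the gene at chr3:82892582-82903974 on mm10. The table gives each of them a second symbol, Rbm46os, an overlapping noncoding gene. The sources used here do not state whether strand was used in counting, so the reads of these genes cannot be told apart.

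The peak nearest to the Lrat 3′ end, at chr3:82893800-82893910, measured 3.54, 2.89 and 3.47 CPM (normalised count, scaled to the library total) in control replicates 1, 2 and 3. In cadmium replicates 1, 2 and 3 it measured 5.08, 6.38 and 7.07 CPM. All cadmium samples were higher than all controls, and the peak rose 1.87-fold (log2 change 0.91, SE 0.19, adjusted p = 0.0208). The call was kept without cadmium replicate 1 or control replicate 1 and lost without any other sample, with adjusted p up to 0.113.

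The next Lrat peak, at chr3:82895171-82895367, measured 6.03, 5.62 and 5.03 CPM in the controls and 10.4, 8.05 and 9.86 CPM in the cadmium samples. The groups did not overlap here either. This peak rose 1.70-fold (log2 change 0.76, SE 0.17, adjusted p = 0.0253), and its call was kept without cadmium replicate 2 or control replicate 1 only (adjusted p up to 0.126 in the other 4).

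The leading Lrat peak, defined for each gene as the peak with the highest mean over all 6 samples, covers chr3:82903156-82903907 at the 5′ end. It measured 31.8, 42.2 and 29.8 CPM in controls and 56.7, 54.4 and 45.9 CPM in cadmium samples. The groups were apart, with control replicate 2 nearest to the cadmium samples. The log2 change of 0.60 (SE 0.17, adjusted p = 0.0688) missed the threshold. It passed with the replicate block (adjusted p = 0.0365).

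The other 2 Lrat peaks had log2 changes of 0.38 (adjusted p = 0.336) and 0.62 (adjusted p = 0.054). In the weaker of these the groups overlapped, since control replicate 2 (15.4 CPM) lay above cadmium replicate 2 (14.0 CPM). The other passed with the replicate block (adjusted p = 0.0276). No Lrat peak departed from the rest of the gene, and the lowest unadjusted p of that within-gene test was 0.192. Counts of all 5 peaks together were higher in every cadmium sample, with a gene sum of 60.9 ± 9.96 CPM (SD, n = 3) in control samples and 90.8 ± 7.87 CPM in cadmium samples. That sum was called higher over all genes (log2 change 0.58, SE 0.14, adjusted p = 0.0341).

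Colec11 encodes collectin-11, a secreted pattern-recognition lectin that starts the lectin pathway of complement. Its 5 peaks lie between chr12:28594193 and 28613022 in a gene on the minus strand, and 4 of them are within 4801 bp of the 3′ end. All 5 had every cadmium sample above every control.

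The leading peak of Colec11, at chr12:28594193-28595125, begins 21 bp from the 3′ end. It measured 67.1, 94.6 and 73.1 CPM in controls and 99.5, 132 and 112 CPM in cadmium samples. Replicate 2 was the highest sample of both groups, and control replicate 2 (94.6 CPM) lay just below cadmium replicate 1 (99.5 CPM). Its log2 change of 0.55 (SE 0.17, adjusted p = 0.0914) was not called, but was with the replicate block (adjusted p = 0.0279).

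The neighbouring peak at chr12:28595221-28595394 measured 8.90, 9.78 and 7.14 CPM in controls and 11.6, 16.2 and 14.1 CPM in cadmium samples. It rose 1.62-fold (log2 change 0.70, SE 0.18, adjusted p = 0.0487). The call was lost with relative log expression scaling (adjusted p = 0.0522) and without any sample other than cadmium replicate 1 (adjusted p up to 0.172).

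The other 3 Colec11 peaks had log2 changes of 0.64, 0.66 and 0.51, with adjusted p of 0.0563, 0.0654 and 0.17. The first 2 of these passed with the replicate block (adjusted p = 0.0411 and 0.0428). The Colec11 changes spanned 0.51 to 0.70, and none of its peaks departed from the others (lowest unadjusted p = 0.563). Its gene sum, 91.0 ± 13.2 CPM (SD, n = 3) in control samples and 133 ± 17.9 CPM in cadmium samples, was called higher (log2 change 0.55, SE 0.15, adjusted p = 0.0433).

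Pdgfrb encodes the beta receptor for platelet-derived growth factor, through which stellate cells are driven to divide and migrate. Its single peak, at chr18:61083286-61084960, is the widest of the set at 1674 bp. It measured 11.1, 20.3 and 16.6 CPM in controls and 30.6, 24.5 and 27.0 CPM in cadmium samples. The lowest cadmium value stood above the highest control, and the difference was largest in batch 1, at a log2 difference of 1.46 against 0.27 in batch 2 and 0.70 in batch 3.

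Among the 8 leading peaks Pdgfrb had the largest log2 change, 0.77 (SE 0.21, 1.71-fold, adjusted p = 0.0564), just outside the threshold over peaks. The same counts, tested among 13050 genes and not 37088 peaks, were called higher (log2 change 0.76, SE 0.20, adjusted p = 0.0426). With the replicate block the gene was not called (adjusted p = 0.0633). Its gene-level call was kept without cadmium replicate 2 or control replicate 2 only, and the largest adjusted p with any sample removed was 0.121.

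Hgf encodes hepatocyte growth factor, the ligand of the receptor MET on hepatocytes, and it had a peak at each end. The 3′ peak, at chr5:16618838-16619072, measured 4.03, 3.67 and 3.24 CPM in controls and 4.66, 6.10 and 6.25 CPM in cadmium samples. The groups were apart, and the log2 change of 0.64 (SE 0.19) had an adjusted p of 0.0713.

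The 5′ peak of Hgf, at chr5:16553881-16553995, is the one whose first 70 bases are printed in capitals above. It measured 3.22, 4.08 and 2.27 CPM in controls and 4.40, 3.29 and 3.42 CPM in cadmium samples. Here the groups overlapped, with control replicate 2 above 2 of the cadmium samples (log2 change 0.21, SE 0.24, adjusted p = 0.662). Neither end passed the within-gene test (unadjusted p = 0.334 and 0.445). The Hgf gene sum was 6.09 ± 1.06 CPM (SD, n = 3) in control samples and 8.23 ± 0.164 CPM in cadmium samples, a log2 change of 0.43 (adjusted p = 0.128).

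Dcn encodes decorin, a small leucine-rich proteoglycan that binds collagen fibrils and TGF-beta. Its leading peak, at chr10:97517545-97518028, measured 23.3, 24.7 and 19.8 CPM in controls and 34.6, 26.6 and 23.8 CPM in cadmium samples. Cadmium replicate 1 was high and cadmium replicate 3 lay inside the control range (log2 change 0.32, SE 0.18, adjusted p = 0.318). The other Dcn peaks had log2 changes of 0.48 and 0.47 with adjusted p of 0.201 and 0.226, and at the first of these the groups did not overlap.

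Ecm1 encodes extracellular matrix protein 1, a secreted glycoprotein that holds latent TGF-beta in check. Its peak, at chr3:95734168-95734503, measured 41.2, 50.5 and 36.2 CPM in controls and 48.2, 53.4 and 45.2 CPM in cadmium samples. Control replicate 2 exceeded 2 of the cadmium samples, and the log2 change was 0.20 (SE 0.16, adjusted p = 0.526).

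Reln encodes reelin, a large secreted matrix glycoprotein made in liver by stellate cells. Its only peak, at chr5:21884461-21884746, ends a gene of 460252 bp and starts 7 bp from its 3′ end. It measured 9.57, 11.6 and 8.56 CPM in controls and 11.3, 10.2 and 11.3 CPM in cadmium samples. The groups overlapped, and this was the smallest log2 change of the set, 0.14 (SE 0.16, adjusted p = 0.661).

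Des encodes desmin, the muscle-type intermediate filament of stellate cells in rodents. Its peak, at chr1:75367381-75367686, measured 2.30, 2.47 and 2.79 CPM in controls and 3.17, 3.47 and 3.24 CPM in cadmium samples. All cadmium samples were higher than all controls, by a log2 change of 0.39 (SE 0.19, adjusted p = 0.263).

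**Figure D2:**
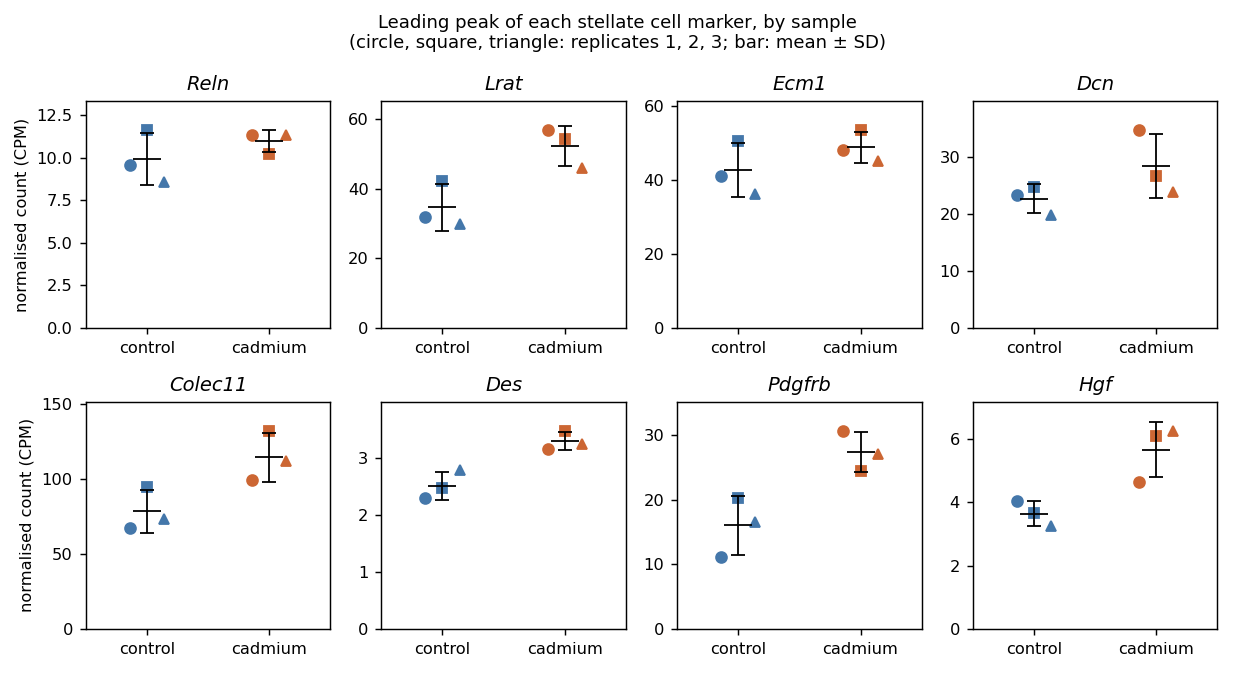
Normalised count (CPM, vertical axis from 0) of the leading peak of each marker in the 3 control and 3 cadmium samples, with mean and SD. The groups are apart for Lrat, Colec11, Des, Pdgfrb and Hgf and overlap for Reln, Ecm1 and Dcn.

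None of the 8 leading peaks was called by edgeR. Of the 8, 4 (Lrat, Colec11, Pdgfrb and Hgf) were higher at an unadjusted p below 0.05, against 11.9% of all tested peaks. With the replicate block the leading peaks of Lrat and Colec11 were called, against 4.64% of all peaks called higher. Without control replicate 2 those of Lrat, Colec11 and Pdgfrb were called (adjusted p 0.0309, 0.0446 and 0.0296), against 986 of 37092 peaks called higher. The shares among the leading peaks of all genes were not computed. At the level of gene sums 3 of the 8 markers were called higher and 0 lower, against 5.98% of all genes called higher. Samples of the groups did not overlap in the sums of 5 markers (Lrat, Colec11, Des, Pdgfrb and Hgf), against 16.9% of all genes. Gene sums are scaled to a table in which a shared peak counts for each of its symbols, so a gene with 1 peak has a lower CPM there than as a peak. With 1 sample left out, the Lrat sum kept its call in the absence of control replicate 2 alone (largest adjusted p = 0.105), and the Colec11 sum in the absence of cadmium replicate 1 or control replicate 2 (largest adjusted p = 0.133). None of the 3 gene-level calls held without cadmium replicate 3, control replicate 1 or control replicate 3.

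Levels of the leading peaks, per kilobase of peak in control samples, were highest for Ecm1, at 127 ± 21.7 CPM per kb (SD, n = 3). Colec11 followed at 84.0 ± 15.5, then Dcn at 46.8 ± 5.27, Lrat at 46.1 ± 8.85 and Reln at 34.8 ± 5.41 CPM per kb. The lowest were Hgf at 15.6 ± 1.70, Pdgfrb at 9.56 ± 2.75 and Des at 8.26 ± 0.807 CPM per kb. Control values of Dcn and Lrat overlapped, as did those of Lrat and Reln and those of Pdgfrb and Des. Between Ecm1 and Colec11, Colec11 and Dcn, Reln and Hgf, and Hgf and Pdgfrb the control samples did not overlap. These are levels of precipitated RNA and not of the transcript.

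Position within the gene could be read for 15 of the 19 peaks, those in genes whose strand the reference table gives. Of these, 6 had their midpoint in the last 10% of the gene span and 2 in the first 10%. Over 23948 peaks with a single symbol the shares were 32.8% and 12.5%. The leading Lrat peak at the 5′ end (0.60) and the Lrat peak at 62.1% of the span (0.62) were near each other in log2 change. When each peak was set against its gene by diffSpliceDGE in edgeR, 0 of 15 marker peaks passed an adjusted p of 0.05, against 0.0296% of 30443 peaks so tested.

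**Figure D3:**
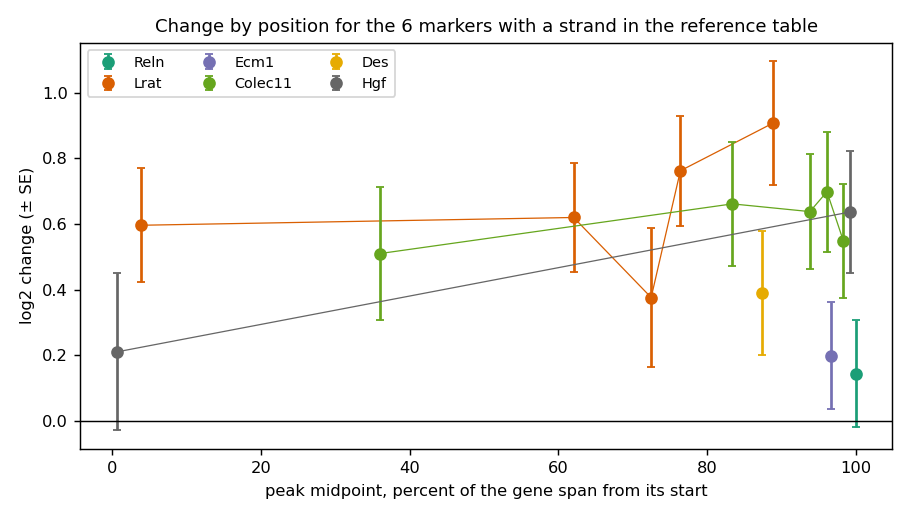
Log2 change in cadmium relative to control samples (vertical axis, with SE) against the peak midpoint as percent of the gene span from its start, for the 6 markers whose strand is known. Lines join peaks of 1 gene, and the peaks of Colec11 lie between 0.51 and 0.70 across its span.

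Across the 6 samples the gene sums of the markers moved together to different degrees. Pearson's r of the log2 sums, over pairs of markers, had a median of 0.74 and ran from 0.138 for Reln and Des to 0.935 for Lrat and Hgf, with 28 pairs and 6 samples that share libraries and the group difference. By the same measure the genes most like the mean of the standardised markers were Rab32 (r = 0.997), Rbm46os (0.995) and Adprm (0.994). Rbm46os holds the same 5 peaks as Lrat. Of 8385 genes compared, 234 had r above 0.9, and Rab32 (log2 change 0.37, adjusted p = 0.0941) was itself not called.

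Other genes of stellate cells were read from their leading peaks. For this and the lists that follow, 3.55% of all tested peaks were called higher and 2.72% lower. The share among the leading peaks of all genes was not computed. Of 20 genes of the quiescent cell 17 had a tested peak, of which 4 rose and 0 fell, with a median log2 change of 0.50. Ngfr, the p75 neurotrophin receptor, rose from 6.19 ± 0.213 to 19.7 ± 2.38 CPM (SD, n = 3), a log2 change of 1.67 (SE 0.16, adjusted p = 0.000951). Sod3, the extracellular superoxide dismutase, rose 2.03-fold (adjusted p = 0.00468), Rgs5, a pericyte regulator of G-protein signals, 2.36-fold (adjusted p = 0.0084) and Gucy1a1, a subunit of the nitric oxide receptor, 1.72-fold (adjusted p = 0.0242). Gfap, a filament protein of stellate cells, had no peak, and neither had Nes or Hhip. Of the 13 uncalled genes, 2 were below 0, the chemokine gene Cxcl12 (-0.39, adjusted p = 0.15), with every cadmium sample below every control, and Hand2 (-0.24, adjusted p = 0.595). The Hand2 peak is shared with Hand2os1.

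Of 19 genes of myofibroblast activation 15 had a tested peak, of which 6 rose and 0 fell, with a median log2 change of 0.74. Acta2, the smooth muscle actin that defines the myofibroblast, had no peak, and neither had Timp1, Lox or S100a6. The fibrillar collagen genes Col1a1 (log2 change 2.26, SE 0.30, adjusted p = 0.00268), Col3a1 (1.91, SE 0.26, adjusted p = 0.00314) and Col1a2 (1.44, SE 0.24, adjusted p = 0.00838) rose. So did Vim, the filament protein vimentin (1.21, SE 0.24, adjusted p = 0.018), and the collagen cross-linking enzymes Loxl2 (1.07) and Loxl1 (1.24), with adjusted p of 0.0217 and 0.024. The 9 uncalled genes ran from -0.56 (Ccn2) to 0.81 (Tagln, at a peak shared with Gm48529) in log2 change. Fn1, with the most abundant leading peak of the list, measured 124 CPM in both groups (log2 change -0.00, adjusted p = 0.999). Summed gene levels of the list overlapped, at 857 to 1488 CPM in control and 1030 to 1308 CPM in cadmium samples. The collagen peaks had low control means, 1.32 CPM for Col1a1, 2.59 CPM for Col3a1 and 2.48 CPM for Col1a2.

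Relatives of Dcn among the small leucine-rich proteoglycans had a peak for 4 of 8 genes, of which 2 rose and 0 fell, with a median log2 change of 0.60. Bgn, which encodes biglycan, rose from 11.4 ± 0.729 to 19.5 ± 1.73 CPM (SD, n = 3, log2 change 0.77, adjusted p = 0.0145), and Prelp rose 1.55-fold (adjusted p = 0.0307) at a peak it shares with Gm15851. Lum (0.57, adjusted p = 0.0551) and Fmod (0.30) were not called.

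Retinoid handling, the pathway around Lrat, had 12 of 14 genes with a tested peak, of which 3 rose and 0 fell, with a median log2 change of 0.02. Stra6l, a receptor for retinol uptake (0.85, adjusted p = 0.024), and the retinal reductase genes Rdh11 (1.33, adjusted p = 0.0265) and Dhrs3 (0.57, adjusted p = 0.045) were the 3. The retinoic acid hydroxylase gene Cyp26a1 had a log2 change of -1.11 without a call (adjusted p = 0.0823).

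Partners of the other markers were read in the same way, against 3.55% of all tested peaks called higher and 2.72% lower. Of 10 genes of PDGF signalling 1 rose, the ligand gene Pdgfc (4.86 ± 0.740 to 11.5 ± 3.17 CPM, SD, n = 3, log2 change 1.24, adjusted p = 0.011), and 1 fell, the PI3-kinase subunit gene Pik3r1 (-0.82, adjusted p = 0.0175). In HGF signalling 0 of 8 genes with a peak were called by edgeR. An unadjusted p below 0.05 was found for 2 of the 8, against 21.8% of all tested peaks in either direction. Those 2 differed in direction, Spint1 at 0.77 and Gab1, at a peak shared with Gm31105, at -0.49. The receptor gene Met (-0.12) and Spint2 (0.18), an inhibitor of HGF activators, were the most abundant genes of the list. Median log2 changes were 0.01 in PDGF and 0.13 in HGF signalling. Summed gene levels of the PDGF list were lower in every cadmium sample, at 730 to 832 CPM in control and 589 to 623 CPM in cadmium samples. The most abundant leading peak of that list, in Pik3r1, went from 184 to 104 CPM. Of the 10 genes, 5 had a log2 change above 0. Sums of the HGF list overlapped, at 474 to 526 CPM in control and 461 to 521 CPM in cadmium samples. In reelin signalling 1 of 4 fell, the reelin receptor gene Vldlr (7.08 ± 2.58 to 3.44 ± 0.209 CPM, SD, n = 3, log2 change -1.04, adjusted p = 0.0368). Sums of the reelin list did not overlap, at 383 to 439 CPM in control and 328 to 372 CPM in cadmium samples. The most abundant leading peak there was in Crk (log2 change -0.39, adjusted p = 0.286). Such sums are weighted by the most abundant genes, and how often sums of other gene lists separate was not computed. In the lectin pathway around Colec11, 0 of 10 genes were called, with Mbl1 at 0.51 (adjusted p = 0.0654) and C3 at 0.10. An unadjusted p below 0.05 was found for 5 of these 10, all of them higher, against 11.9% of all tested peaks higher at that threshold. Among filament genes near desmin, Vim was the only call of 5 with a peak.

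**Figure D4:**
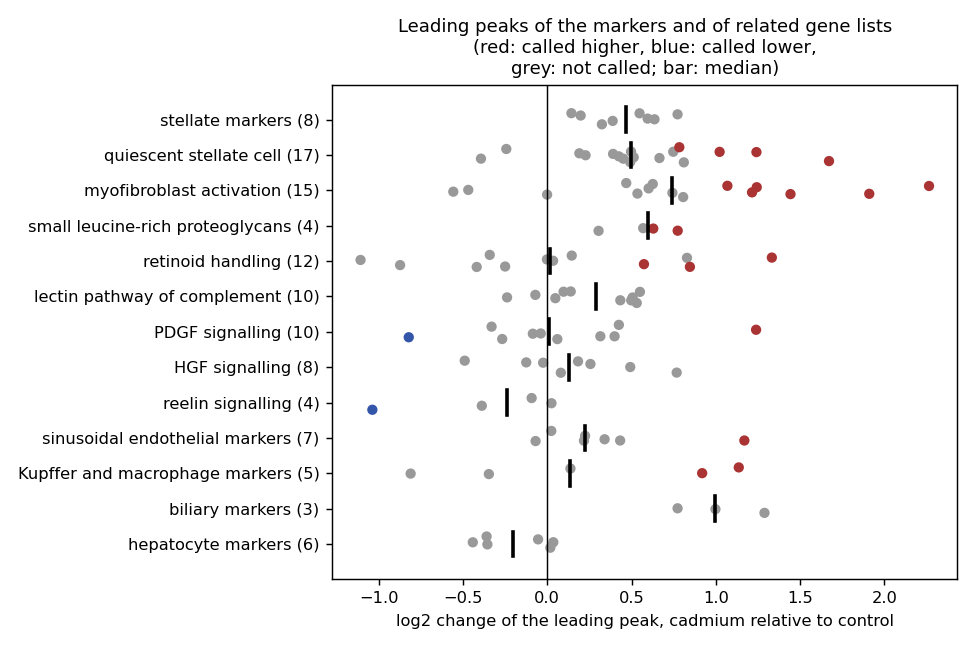
Log2 change in cadmium relative to control samples (horizontal axis) of the leading peak of each gene with a peak, by gene list, with the list median as a bar. The 8 stellate markers have a median of 0.47 and no called leading peak, and the called points of the quiescent and activation lists lie between 0.78 and 2.26.

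Markers of other liver cells were read in the same samples. Summed gene levels of the 3 biliary markers with a peak (Epcam, Sox9 and Spp1) were 78.4, 99.99 and 97.1 CPM in control replicates 1, 2 and 3 and 263, 73.6 and 216 CPM in the cadmium samples. None of the 3 was called, and the leading Spp1 peak is shared with Gm42793. Krt7 and Krt19, which define bile duct cells, had no peak. The portal fibroblast and smooth muscle markers with a peak (3 of 8) summed to 28.6 to 34.1 CPM in control and 29.2 to 54.4 CPM in cadmium samples, without a call and with no peak in Myh11 or Cnn1. Cadmium replicate 2 was the lowest of its group in both sums. The 8 stellate markers, with Colec11 the most abundant, summed to 340 to 380 CPM in cadmium samples and to 229 to 298 CPM in controls. Colec11, Ecm1 and Des were highest in cadmium replicate 2, Lrat, Pdgfrb, Dcn and Reln in cadmium replicate 1, and Hgf in cadmium replicate 3.

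Of 5 Kupffer cell and macrophage markers with a peak, Cd5l (log2 change 1.14, adjusted p = 0.0158) and Csf1r (0.92, adjusted p = 0.0199) rose, and the list summed to 130 to 187 CPM in control and 205 to 260 CPM in cadmium samples. Vsig4 (-0.81, adjusted p = 0.155) and Marco (-0.35) were below 0 without a call, the median log2 change of the list was 0.14, and Adgre1 and Timd4 had no peak. Of 7 sinusoidal endothelial markers 1 rose, Lyve1 (1.17, adjusted p = 0.039), with no peak in Clec4g and overlapping sums of 180 to 255 and 178 to 270 CPM. The 6 hepatocyte markers, of which Apoa1 (0.04) and Alb (-0.05) were the most abundant, had no call and a median log2 change of -0.20, with sums of 12545 to 14085 CPM in control and 10900 to 13672 CPM in cadmium samples. The 2 lymphocyte markers with a peak, Ptprc and Cd3e, summed to 1.99 to 2.58 and 2.90 to 4.13 CPM without a call, and none of 4 mesothelial markers had a peak. Over all tested peaks 3.55% were called higher and 2.72% lower. The part of these cell types in the marker differences was not tested.

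In the authors' deposited table, 9 of the 19 peaks had an adjusted p below 0.05, against 9.92% of all peaks. Of the 19, 0 were called Up or Down there, against 1573 of all 37118 peaks, and every peak called in the authors' deposited table had an absolute log2 fold change of at least 1.00. The largest value for a marker in the authors' deposited table was 0.90, at the Lrat peak nearest to the 3′ end.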

How the data were processed

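The authors deposited 1 table of m6A peaks with raw counts per peak, gene symbols, and their own log2 fold change and p-value columns. Per the submitters' processing notes the tools were MACS2 2.1.1, STAR 2.7.1a, cutadapt, SAMtools 1.3.1 and DESeq2, with build mm10. Their settings, the handling of duplicates and strand, and whether peaks were called on pooled samples are not given in the sources used here. Count columns carry a number shared by the immunoprecipitated and the input library of a sample. They were read as immunoprecipitated libraries because rows are m6A peaks. Input values were not used here.

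The quasi-likelihood fit of edgeR 4.0.16 (R 4.3.3) was applied to the counts (TMM scaling, filterByExpr with minimum count 10 and minimum total count 15, quasi-likelihood F test, Benjamini-Hochberg adjustment over 37088 peaks or 13050 gene sums). The filter kept all 19 marker peaks, which had at least 100 counts in every sample. The SE was taken as the size of the log2 change over the root of its F value. DESeq2 1.42.0 was an alternative. Total counts per sample were 40174736 to 52338612. Equal replicate numbers mark a shared batch in the labels, and deviations from group means correlated at 0.160, 0.232 and 0.196 within numbers and at -0.190 to 0.0175 across them. Replicates of a group differed by more than sampling noise (chi-square per degree of freedom 31.9 to 162). Marker genes and lists were chosen with earlier results of these data known. Named genes were all markers, up to 4 called genes of a list by adjusted p or otherwise its 2 most abundant, and genes most like the markers. Other genes named (Loxl1, Loxl2, Cyp26a1, Lum, Fmod, Ccn2, Tagln, Fn1, Crk, Cxcl12, Hand2, Spint1, Gab1, Vsig4, Marco) were added after their values were seen. Ctgf, an older symbol of Ccn2, was dropped from the activation list as a duplicate. Scripts were tested on simulated counts. Positions used RefSeq gene spans of GRCm38.p6, which is mm10, and peak starts are as deposited.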

Additional observations from a re-analysis of the deposited data

How the results depend on the processing

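All 19 peaks and all 8 gene sums kept a log2 change above 0 under each of the 12 alternatives (scaling, test, filters, library sizes, replicate block and leaving out each sample), in 324 of 324 values. These values re-use the same counts, and a gene with 1 peak enters both as a peak and as a sum. The share of all peaks that kept their direction was not computed. Calls held less well than direction. Over all peaks, 2325 were called, 3710 with DESeq2, 3143 with the replicate block and 543 to 1977 when 1 sample was left out, lowest without cadmium replicate 3, with 1079 without control replicate 3. Calls among the 19 marker peaks numbered 3, but 9 with DESeq2, 8 with the replicate block, 1 among the 14 peaks with 1 symbol only, and 0 to 4 when 1 sample was left out (1 without cadmium replicate 2, 0 without cadmium replicate 3 or control replicate 3). Leading peaks called numbered 0, but 3 with DESeq2, 2 with the replicate block and 0 to 3 with 1 sample left out. Gene sums called numbered 3, 2 with the replicate block and 0 to 3 with 1 sample left out: 1 without cadmium replicate 1 or 2 and 0 without cadmium replicate 3 or control replicate 1 or 3. The cause of these differences was not tested.

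With 3 samples per group, an uncalled peak is not shown to be equal between groups.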
